A study of Mus musculus with 2 samples.

Results

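The 7 genes described here, Hnf4a, Hnf4g, Creb3l3, Maf, Klf4, Klf5 and Prdm1, encode transcription factors that act while intestinal progenitors become absorptive cells. They were taken by name from a table of 25663 genes measured in single cells, and all 7 had a column. The cells were sorted from the small intestine epithelium of mouse embryos at E18.5, shortly before birth, fixed in 90% methanol and profiled by droplet sequencing of transcript 3′ ends with unique molecular identifiers (UMIs), short tags that mark single molecules. One library came from wild-type embryos (Control) and 1 from embryos lacking Tet3 (Tet3KO), an enzyme that oxidises methylated cytosine in DNA. Tet3 exon 5 had been removed with Cre in embryonic stem cells, which puts a stop in exon 6, so the loss was carried through the germ line and present in every tissue, not in the gut alone. Both genotypes are labelled as strain C57BL6/J, and the mutant line had been backcrossed for at least 5 generations. Each library pooled cells of 2 embryos, and 6000 cells were used for each.

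The deposited table held 11871 cells in 2 sets that differ by a suffix on the cell barcode, called set 0 and set 1. No label ties a suffix to a genotype, so no comparison of Control with Tet3KO was made, and the sets are shown side by side as a check of how far a value differs between them. In total 818 barcodes occurred in both sets. These cells had a median of 51369 UMIs in set 0 and 13596 in set 1, and were deeper in set 0 in 813 cases. Across the shared barcodes Fabp1 correlated with itself between the sets with r = 0.988 and Fabp6 with r = 0.995, and the median correlation of a barcode with itself was 0.882 against 0.809 with the next barcode. The copies in set 1 were therefore left out of every value below, which left 11053 cells, 5933 in set 0 and 5120 in set 1. The median depth was 23657 UMIs per cell in set 0 and 22374 in set 1.

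Levels are means over cells of the deposited signal, which sums to 10000 in each cell and is written CP10K. Since each molecule gives 1 tag at its 3′ end, CP10K does not depend on transcript length. All cells count as 1 pooled sample, so there is no replicate error and no test. Intervals are exact 95% Poisson or Clopper-Pearson intervals on UMI counts that were recovered from the signal, and they cover counting error only. A gene is called higher or lower when its levels in groups of at least 50 cells differ at least 2-fold after adding 0.01, with a level of at least 0.2 CP10K in 1 of the groups. The call is a size and says nothing about replicates.

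Absorptive enterocytes arise from dividing progenitors, leave the cell cycle, and then build a brush border and the machinery that takes up and packages lipid. HNF4A and HNF4G are nuclear receptor paralogues that bind the same DNA element and together keep enterocyte genes active. CREB3L3 is anchored in the endoplasmic reticulum membrane and, once cut free, switches on genes of lipid transport such as apolipoproteins, while MAF is a basic leucine zipper factor of enterocytes. PRDM1 (Blimp1) is a repressor that holds back adult enterocyte genes in the fetal and suckling gut. KLF5 is a zinc finger factor of dividing crypt cells, and KLF4 is a related factor of cells that have stopped dividing, with a known role in goblet cells. FABP1 is the liver-type fatty acid binding protein of enterocytes, FABP6 the bile acid binding protein of the ileum, and Mki67 and Top2a mark cells in cycle.

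Start-site sequence was found in RefSeq (GRCm38.p6) for 4 of the 7 members, as 6 windows of 250 bases before the start. Shown are 1 of the 2 windows of Creb3l3, the one at the upstream start, since this gene had the widest range of levels over the cell classes, and both windows of Hnf4a, which went the opposite way to its paralogue with Fabp6. Capitals mark matches on either strand to 4 short motifs, which are CAAAGG (a core of HNF4-type elements), TGCTGA (an arm of a Maf recognition element), CACCC (the core of a Klf box) and GTTAAT (an arm of an HNF1 element). On the minus strand at chr10:81098873-81099122 lies the Creb3l3 window shown, and on the plus strand at chr2:163506607-163506856 and chr2:163546905-163547154 lie the Hnf4a windows.
Creb3l3 upstream start: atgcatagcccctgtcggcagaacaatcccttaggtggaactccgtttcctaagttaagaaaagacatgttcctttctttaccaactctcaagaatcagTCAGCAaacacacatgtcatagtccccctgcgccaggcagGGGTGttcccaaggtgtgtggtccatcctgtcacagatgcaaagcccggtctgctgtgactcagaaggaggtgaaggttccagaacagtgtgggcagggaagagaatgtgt
Hnf4a upstream start: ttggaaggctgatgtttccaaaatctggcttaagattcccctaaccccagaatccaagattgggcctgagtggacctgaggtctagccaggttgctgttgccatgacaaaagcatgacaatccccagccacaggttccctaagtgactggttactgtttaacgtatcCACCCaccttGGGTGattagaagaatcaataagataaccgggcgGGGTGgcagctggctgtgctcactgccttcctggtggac
Hnf4a downstream start: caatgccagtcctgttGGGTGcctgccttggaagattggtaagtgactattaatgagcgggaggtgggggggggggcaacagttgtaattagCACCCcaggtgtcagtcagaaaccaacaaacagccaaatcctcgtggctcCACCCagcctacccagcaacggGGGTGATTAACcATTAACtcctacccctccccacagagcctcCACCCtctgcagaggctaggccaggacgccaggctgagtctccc
The Creb3l3 window shown held 1 TGCTGA, whose first base lies at -151 from the start, and 1 CACCC at -111, both on the opposite strand. Its other window, at chr10:81092592-81092841 and not shown, held 1 TGCTGA at -26 on the opposite strand and 2 CACCC at -185 and -123 on the gene's strand. The upstream Hnf4a window held 3 CACCC at -83, -73 and -39. The downstream Hnf4a window held 5 CACCC, and 2 GTTAAT at -81 and -74. Of 32851 promoter windows of this length, 17.6% held CAAAGG, 16.1% TGCTGA, 52.0% CACCC and 6.43% GTTAAT. A match is a description of the letters and not a binding site. The 3′ tags cannot tell transcripts of the 2 starts of either gene apart.

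In the GENCODE annotation of GRCm38, Hnf4a (ENSMUSG00000017950) lies at chr2:163506808-163572910 on the plus strand, Hnf4g (ENSMUSG00000017688) at chr3:3508030-3658052 on the plus strand and Creb3l3 (ENSMUSG00000035041) at chr10:81084324-81098874 on the minus strand. Maf (ENSMUSG00000055435) lies at chr8:115682942-115707794, Klf4 (ENSMUSG00000003032) at chr4:55527143-55532466 and Prdm1 (ENSMUSG00000038151) at chr10:44437177-44528501, all on the minus strand, and Klf5 (ENSMUSG00000005148) at chr14:99298691-99315036 on the plus strand. Hnf4a overlaps its antisense gene Hnf4aos, Maf overlaps the antisense gene Gm15655, and Hnf4g overlaps the pseudogene Gm37000. Whether counting used the strand is not given in the sources used here, so reads of these antisense partners could not be told apart from the members.

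The sort matched its label. The 5 epithelial markers (Epcam, Cdh1, Krt8, Krt18, Krt20) summed to 29.9 CP10K over all cells and the enterocyte list to 598. The endothelial and immune lists summed to at most 0.01 and the mesenchymal list to 0.12. Tuft cells are epithelial, and their list also summed to at most 0.01. Ptprc and Cd3e of the immune list and Pou2f3 of the tuft list had no column, so those sums leave them out. Secretory cells were few. A sum of at least 20 over the goblet list was reached by 207 cells and a sum of at least 10 over the enteroendocrine list by 47. By Fabp1, 3864 cells were below 40 CP10K, 1049 at 40 to 100 and 6140 above 100. By Fabp6, 8971 cells were below 10 CP10K, 947 at 10 to 50 and 1135 above 50. The high Fabp6 class held 1108 cells of set 0 and 27 of set 1, so every value for it is in effect a value of set 0. By the sum of Mki67 and Top2a, 8989 cells were at 0, 1220 between 0 and 2, and 844 at 2 or more, of which 450 were in set 0 and 394 in set 1. Few cells lay within 10% of a limit, with 189 near the Fabp1 limit of 40, 341 near 100, 116 near each Fabp6 limit and 76 near the cycling limit.

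Over all cells Creb3l3 stood at 5.28 CP10K (5.13 in set 0 and 5.46 in set 1), the highest of the 7. Maf followed at 2.17 (2.36 and 1.96) and Klf5 at 1.70 (1.66 and 1.75). Hnf4a stood at 0.983 (1.01 and 0.950), Hnf4g at 0.622 (0.643 and 0.598), Prdm1 at 0.438 (0.442 and 0.432) and Klf4 at 0.278 (0.384 and 0.156). Both sets gave the same order of the 7. The gaps between neighbours in this order exceeded the difference between the sets for each pair except Prdm1 with Klf4, since Klf4 itself differed between the sets by more than that gap.

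**Figure D1:**
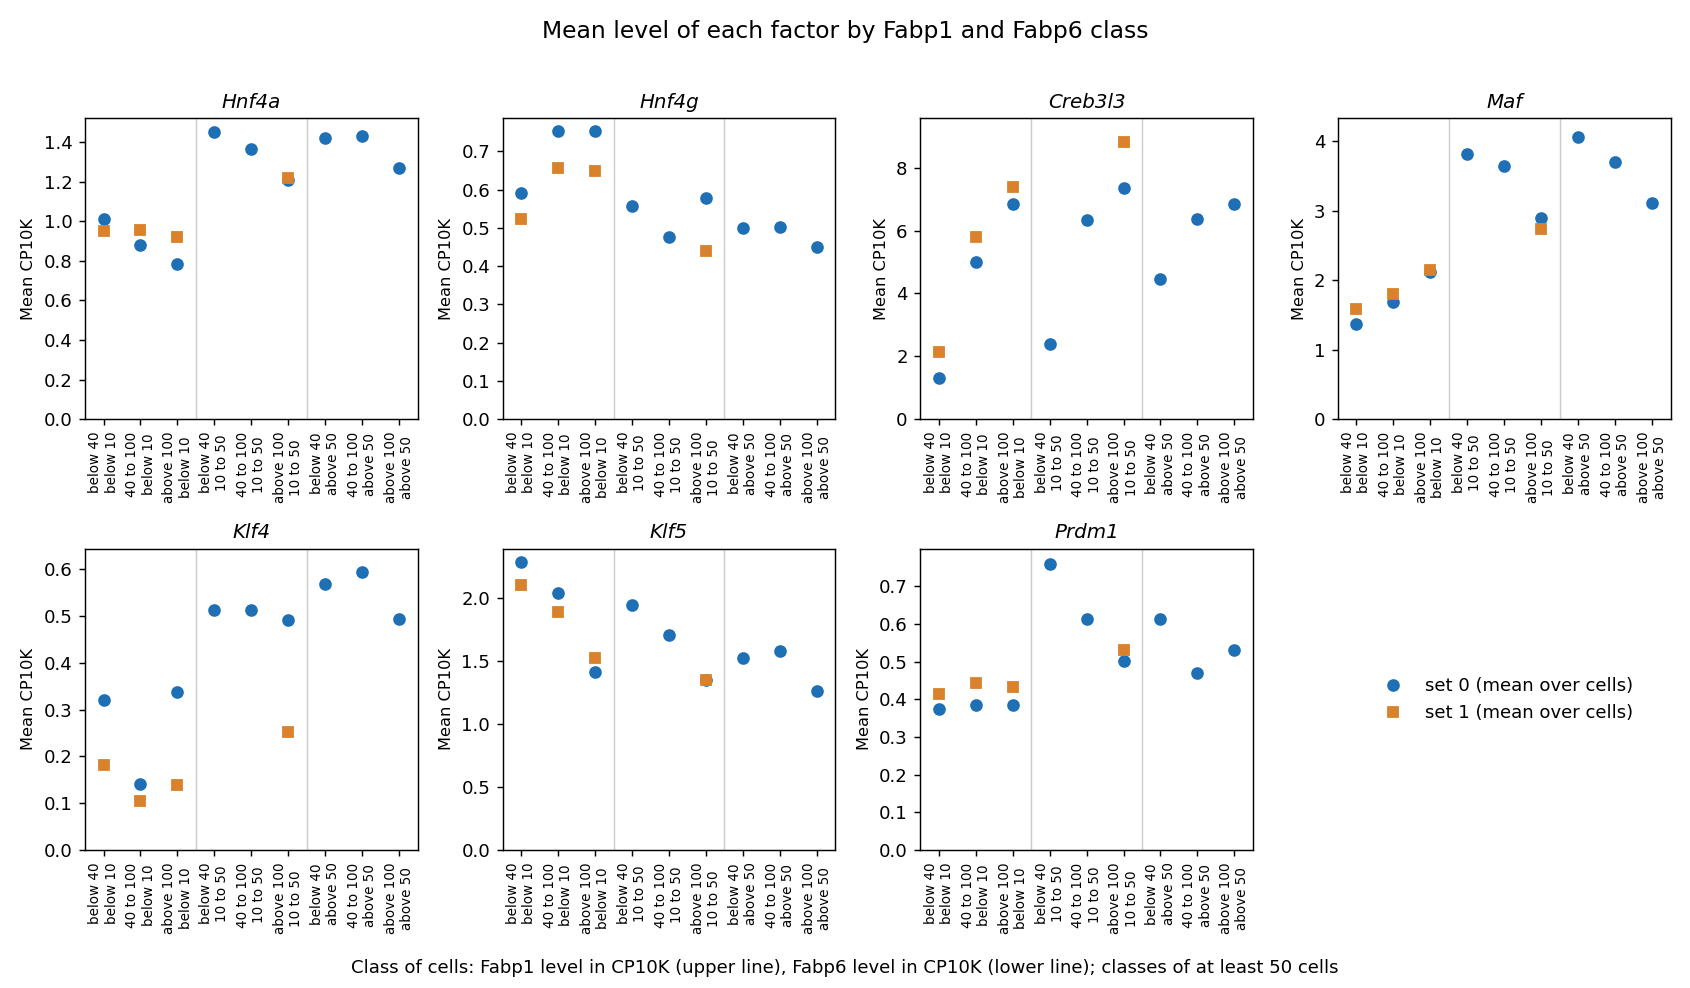
Mean level of each of the 7 genes (CP10K) in the classes made by crossing 3 Fabp1 with 3 Fabp6 ranges, with set 0 and set 1 as separate points and classes under 50 cells left out. Creb3l3 rises from 1.31 to 7.34 in set 0 across the classes, Maf and Hnf4a are higher where Fabp6 is high, and Klf4 differs between the sets.

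How far each gene moved across the Fabp1 by Fabp6 classes differed widely. In set 0, which filled 9 classes, the highest level over the lowest was 5.60 for Creb3l3, 4.22 for Klf4, 2.98 for Maf, 2.03 for Prdm1, 1.85 for Hnf4a, 1.81 for Klf5 and 1.68 for Hnf4g. In set 1, which filled 4 classes, the same ratio was 4.12 for Creb3l3, 2.40 for Klf4, 1.73 for Maf, and between 1.28 and 1.56 for the other 4. The plot of levels by class shows these ranges. Creb3l3, Maf and Prdm1 were lowest in the class low for both Fabp1 and Fabp6 in both sets, and Klf5 was highest there.

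Creb3l3 was the 1 member called between high and low Fabp1. Its level was 7.16 CP10K above 100 and 2.16 below 40, a log2 ratio of 1.73. The sets gave 6.89 against 2.18 (1.66) and 7.49 against 2.13 (1.81), and on summed UMIs the log2 ratio was 1.66 with a counting interval of 1.64 to 1.68. Of 5666 genes measured in this comparison, 4.91% were higher, 11.6% lower and 16.5% either, so 1 of 7 lies near the background share. Within the sets 4.94% (set 0) and 5.2% (set 1) of genes were higher. The median log2 ratio was -0.08 over the members and -0.17 over all genes. Low-Fabp1 cells were shallower, with a median of 19831 UMIs against 24886. The part of depth in these ratios was not tested.

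The other 6 members stayed under 2-fold between these classes. Klf5, the factor of dividing cells, stood at 1.44 CP10K in high and 2.08 in low Fabp1 cells (log2 -0.52, with -0.57 in set 0 and -0.47 in set 1). Hnf4g stood at 0.667 and 0.546 (log2 0.29, with 0.29 and 0.27), and Hnf4a at 0.917 and 1.07 (log2 -0.22, with -0.38 and -0.02). The paralogues thus had opposite signs, but Hnf4a lay near the median of all genes in the pool (-0.17). It was below that median in set 0 (-0.18) and above it in set 1 (-0.15). The log2 ratios of Maf (0.19), Klf4 (-0.14) and Prdm1 (-0.08) each changed sign under another choice of cells. Maf gave -0.23 among cells with no Mki67 or Top2a signal, Klf4 0.12 without secretory cells, and Prdm1 0.08 in set 1 alone.

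The comparison was repeated among cells with Fabp6 below 10, which both sets fill. Creb3l3 stood at 7.11 CP10K in 5134 high-Fabp1 cells and 1.78 in 3048 low-Fabp1 cells (log2 1.99, with 2.37 in set 0 and 1.79 in set 1), and at a log2 ratio of 1.59 among cells with no Mki67 or Top2a signal. Against all cells the ratio was larger in set 0 and in the pool but not in set 1. Again it was the 1 member called, beside 21.3% of genes called either way and 6.79% called higher. Maf had a log2 ratio of 0.52 here (0.64 and 0.44), but 0.04 among cells without cycling signal. Klf5 gave -0.57 (-0.69 and -0.46), Hnf4g 0.34 (0.35 and 0.31) and Hnf4a -0.19 (-0.36 and -0.05). The immediate-early genes (12 genes such as Fos and Egr1 that react to stress and to tissue handling, a list added after the data were seen) summed to 11.6 CP10K in high and 23.6 in low Fabp1 cells of set 0, and to 11.7 and 17.3 in set 1. In set 0, 7 of the 12 were lower (median log2 -1.04), beside 1064 of 5738 genes. In set 1, 2 of the 10 past the minimum level were lower (median log2 -0.60), beside 621 of 5684 genes. The part of the immediate-early genes in the member ratios was not tested.

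**Figure D2:**
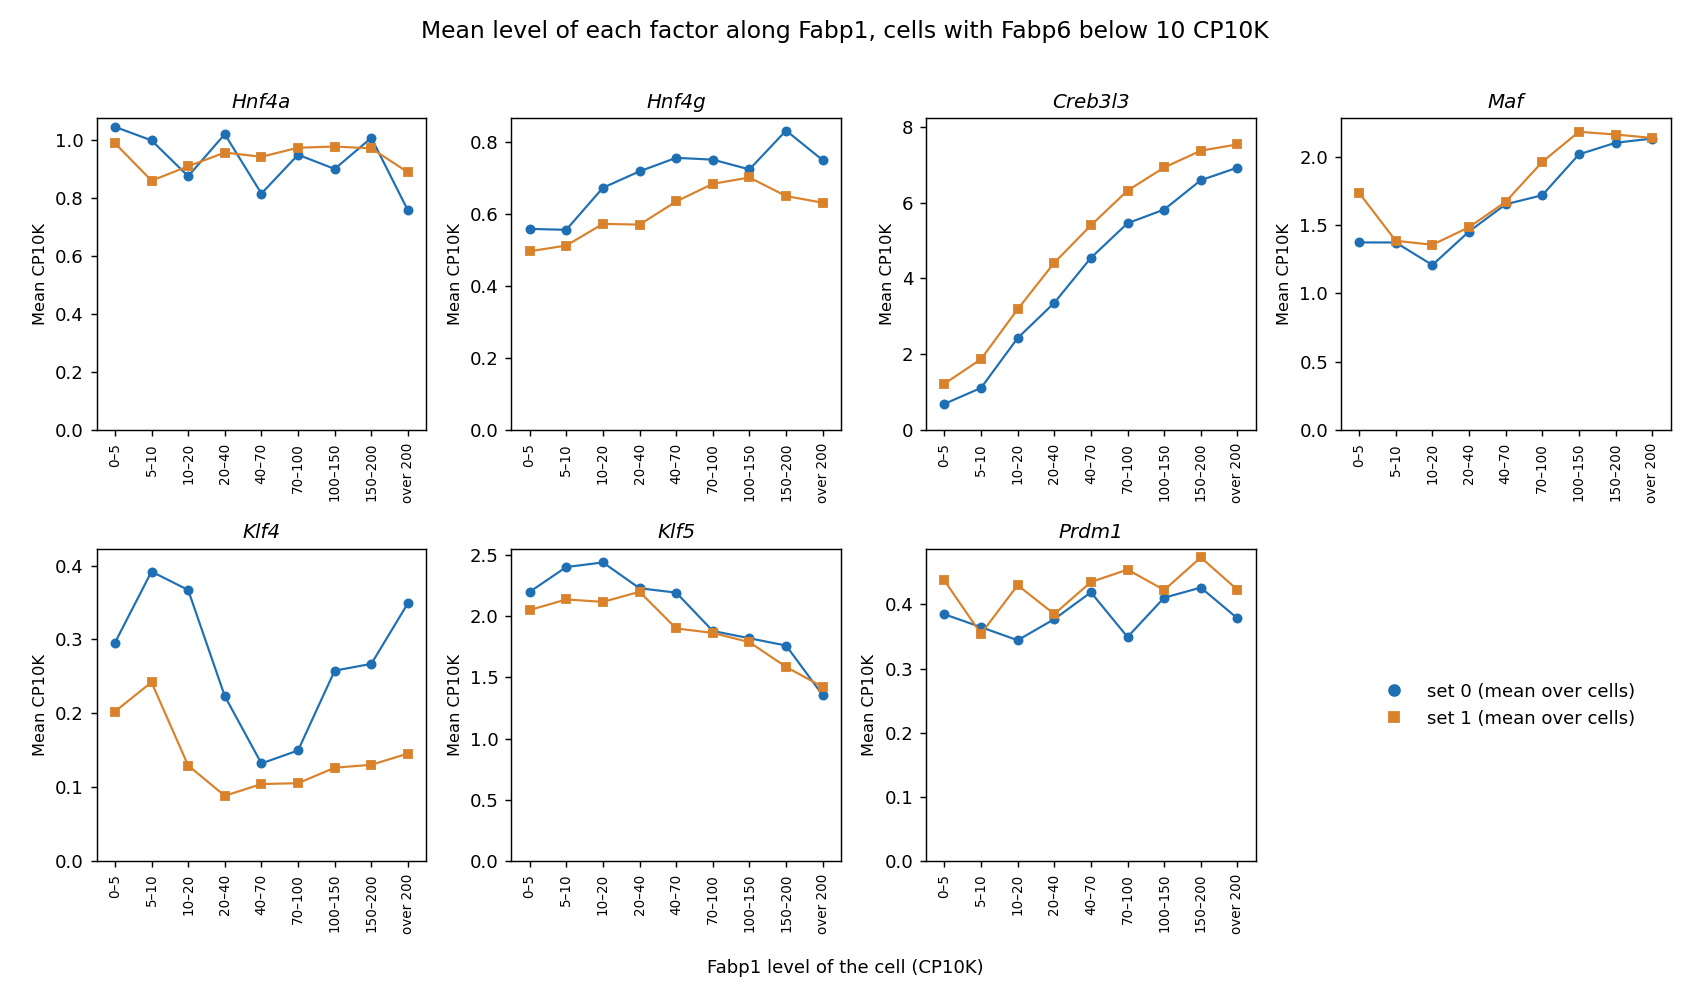
Mean level of each gene (CP10K) in 9 bins of Fabp1 among cells with Fabp6 below 10, drawn for set 0 and set 1. Creb3l3 climbs at each step in both sets, from 0.696 to 6.92 in set 0 and from 1.23 to 7.53 in set 1, while Klf5 ends below where it starts.

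In finer bins the gain of Creb3l3 was not placed at a single limit. Most of it lay below Fabp1 100, and the level rose little above that. With Fabp6 below 10, its level was 1.00 CP10K at Fabp1 0 to 5, 2.87 at 10 to 20, 5.15 at 40 to 70, 6.66 at 100 to 150 and 7.18 above 200. Each of the 9 bins was above the one before it in both sets, as the plot of levels along Fabp1 shows. Creb3l3 and Fabp1 levels share the same cells, and each is a part of the same total of 10000. Klf5 went from 2.11 in the lowest bin through 2.28 at 5 to 10 to 1.38 above 200. Maf was not monotonic, with 1.58 at 0 to 5, 1.30 at 10 to 20 and 2.13 above 200. Klf4 also dipped in the middle, from 0.320 at 5 to 10 to 0.112 at 40 to 70 and 0.263 above 200.

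Hnf4a and Hnf4g parted with Fabp6. In set 0, Hnf4a stood at 1.36 CP10K in cells with Fabp6 above 50 and 0.864 in cells below 10 (log2 0.65), and Hnf4g at 0.480 and 0.702 (log2 -0.54). Neither reached 2-fold. Within Fabp1 above 100, where the enterocyte programme is high in both groups, set 0 gave 1.27 against 0.786 for Hnf4a (log2 0.69, and 0.69 with an interval of 0.61 to 0.77 on summed UMIs) and 0.449 against 0.754 for Hnf4g (log2 -0.73, and -0.68 with an interval of -0.80 to -0.56 on summed UMIs). The middle Fabp6 class, added after the data were seen because both sets fill it, had the same signs. There, against Fabp6 below 10 and within Fabp1 above 100, the log2 ratio of Hnf4a was 0.61 in set 0 and 0.40 in set 1, and that of Hnf4g -0.38 and -0.55. No member was called in that comparison, in which 1.64% of genes were called either way.

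Expressed as the Hnf4a share of all Hnf4a and Hnf4g UMIs, the balance was 61.0% over all cells (Clopper-Pearson interval 60.5 to 61.4). It was 57.8% with Fabp6 below 10, 69.6% at 10 to 50 and 73.2% (72.1 to 74.4) above 50. Within Fabp6 below 10 the share was lower as Fabp1 was higher, at 62.8%, 54.9% and 51.0% in set 0 and 64.7%, 60.0% and 58.7% in set 1 from the low to the high Fabp1 class. In high-Fabp1, low-Fabp6 cells the sets differed beyond counting error, with 50.1 to 52.0 in set 0 and 57.7 to 59.6 in set 1. With Fabp6 above 50 the share varied little with Fabp1 in set 0, at 73.4%, 74.4% and 72.9%. Cycling cells had 62.9% and cells without cycling signal 60.9%.

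**Figure D3:**
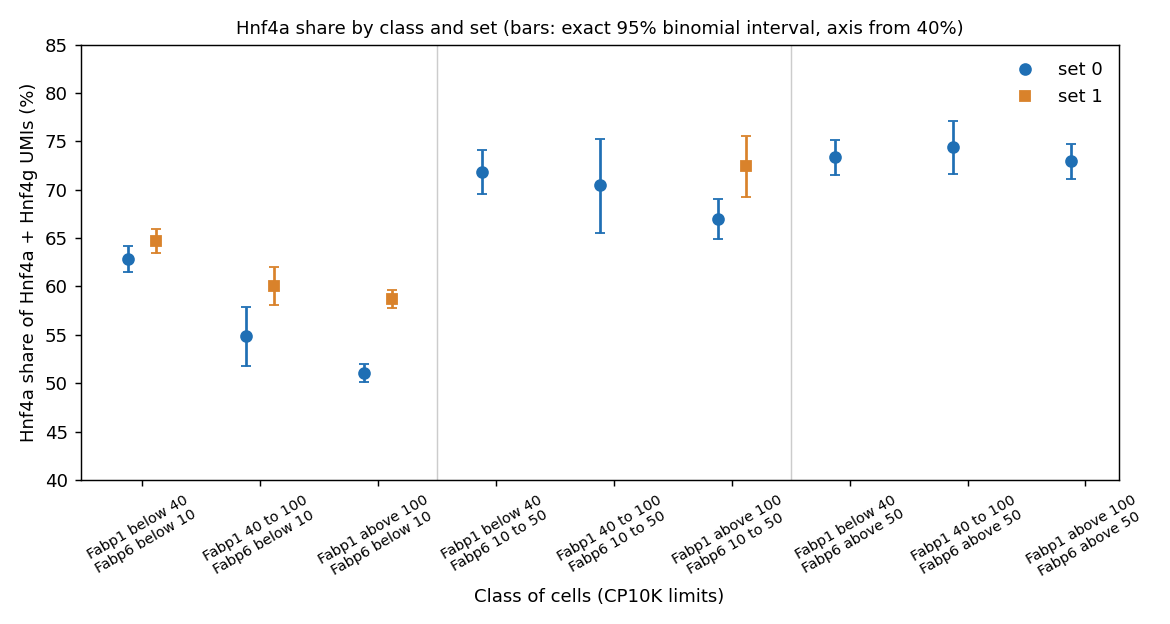
Hnf4a UMIs as a percentage of Hnf4a plus Hnf4g UMIs by Fabp1 and Fabp6 class and set, with exact 95% Clopper-Pearson intervals that cover counting error only. The share is 51.0% in set 0 cells with high Fabp1 and low Fabp6 and 72.9% in those with high Fabp1 and high Fabp6.

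Maf and Klf4 were the members that reached 2-fold with Fabp6, and only in some comparisons. Over all cells 1 of 7 members was called between Fabp6 above 50 and below 10, which was Klf4 (0.544 against 0.228 CP10K, log2 1.22), beside 4.05% of genes called higher and 9.92% either way. This ratio sets a class of set 0 against a class of both sets, and in set 0 alone Klf4 stood at 0.543 against 0.320 (log2 0.74) and no member was called, beside 8.63% of genes. Maf stood at 3.62 against 1.85 in set 0 (log2 0.96), just under 2-fold. Prdm1 stood at 0.556 against 0.381 (log2 0.53), Klf5 at 1.43 against 1.73 (log2 -0.28) and Creb3l3 at 5.73 against 4.95 (log2 0.21).

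Within Fabp1 40 to 100, both Maf and Klf4 were called. In set 0, Maf stood at 3.70 CP10K in 187 cells with Fabp6 above 50 and 1.68 in 243 cells below 10 (log2 1.13), and Klf4 at 0.594 and 0.141. With set 1 cells added to the low class the log2 ratios were 1.06 for Maf and 2.26 for Klf4. Over the alternatives the pooled Maf ratio was lowest at 0.94, with limits 20% higher, so its call rests on the limits and on the scaling (0.96 with totals that leave out mitochondrial, ribosomal protein and haemoglobin genes), while Klf4 ran from 1.69 to 2.32. Higher calls took 11.6% of genes in set 0 and 9.11% in the pool, and calls either way 22.2% and 18.6%. Within Fabp1 above 100 the Maf log2 ratio was 0.55 in set 0 and in the pool, while Klf4 gave 0.54 in set 0 and 1.04 in the pool, where it was the 1 member called beside 2.52% of genes called higher and 4.69% either way. Creb3l3 had the same level, 6.83, in both of these set 0 classes.

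The largest Maf level of any Fabp1 by Fabp6 class was at low Fabp1 and high Fabp6, with 4.06 CP10K in set 0, while Creb3l3 was at 4.45 there against 6.83 at high Fabp1 and high Fabp6. Prdm1 was highest at low Fabp1 with Fabp6 10 to 50, at 0.761 in set 0. The immediate-early genes differed with Fabp6. Within Fabp1 40 to 100 in set 0, where Maf and Klf4 were called, they summed to 10.1 CP10K with Fabp6 above 50 and 20.7 below 10, and 7 of 12 were lower (median log2 -1.16) beside 10.5% of all genes. In the pool their sum below 10 was 17.4, and 5 of the 11 past the minimum level were lower (median -0.96), beside 9.44% of all genes. Within Fabp1 above 100 their sums were 9.29 and 11.6. The part of this signal in the member differences was not tested.

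Among the 1702 cells low for Fabp1 and Fabp6 and without Mki67 or Top2a signal, the Maf level differed by Afp. Afp encodes alpha-fetoprotein, a serum protein of the fetus, and this split was added after the data were seen. The Maf level at Afp of at most 1, 1 to 5, 5 to 20 and above 20 was 1.31, 3.22, 4.59 and 4.11 CP10K in set 0 and 1.28, 2.35, 3.57 and 3.66 in set 1. Between the outer classes (276 against 1092 cells) the log2 ratio was 1.53 (1.64 in set 0 and 1.51 in set 1), and it was 1.47 without secretory cells. Maf was the 1 member called in the pool, where 21.7% of genes were called either way and 11.1% higher. In set 1 alone Klf4 was called too, beside 10.3% of genes called higher.

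The other members were less far apart by Afp. Klf4 stood at 0.401 against 0.232 CP10K (log2 0.76, with 0.87 in set 0, 1.16 in set 1 and 1.42 without secretory cells). Prdm1 stood at 0.605 against 0.397 (log2 0.60, with 0.75 and 0.53), Hnf4a at 1.28 against 0.919 (0.47, with 0.59 and 0.44) and Klf5 at 1.51 against 2.24 (-0.57, with -0.50 and -0.58). Creb3l3 gave 0.59 in the pool but 0.13 in set 0 and 0.61 in set 1. Cells with little Afp held more secretory signal, with 11.7 CP10K over the goblet list against 2.53 and 9.94 over the enteroendocrine list against 0.23. Their immediate-early sum was 21.5 against 8.23, and their median depth 17498 UMIs against 21606. The part of the immediate-early signal and of depth in the Maf difference was not tested.

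**Figure D4:**
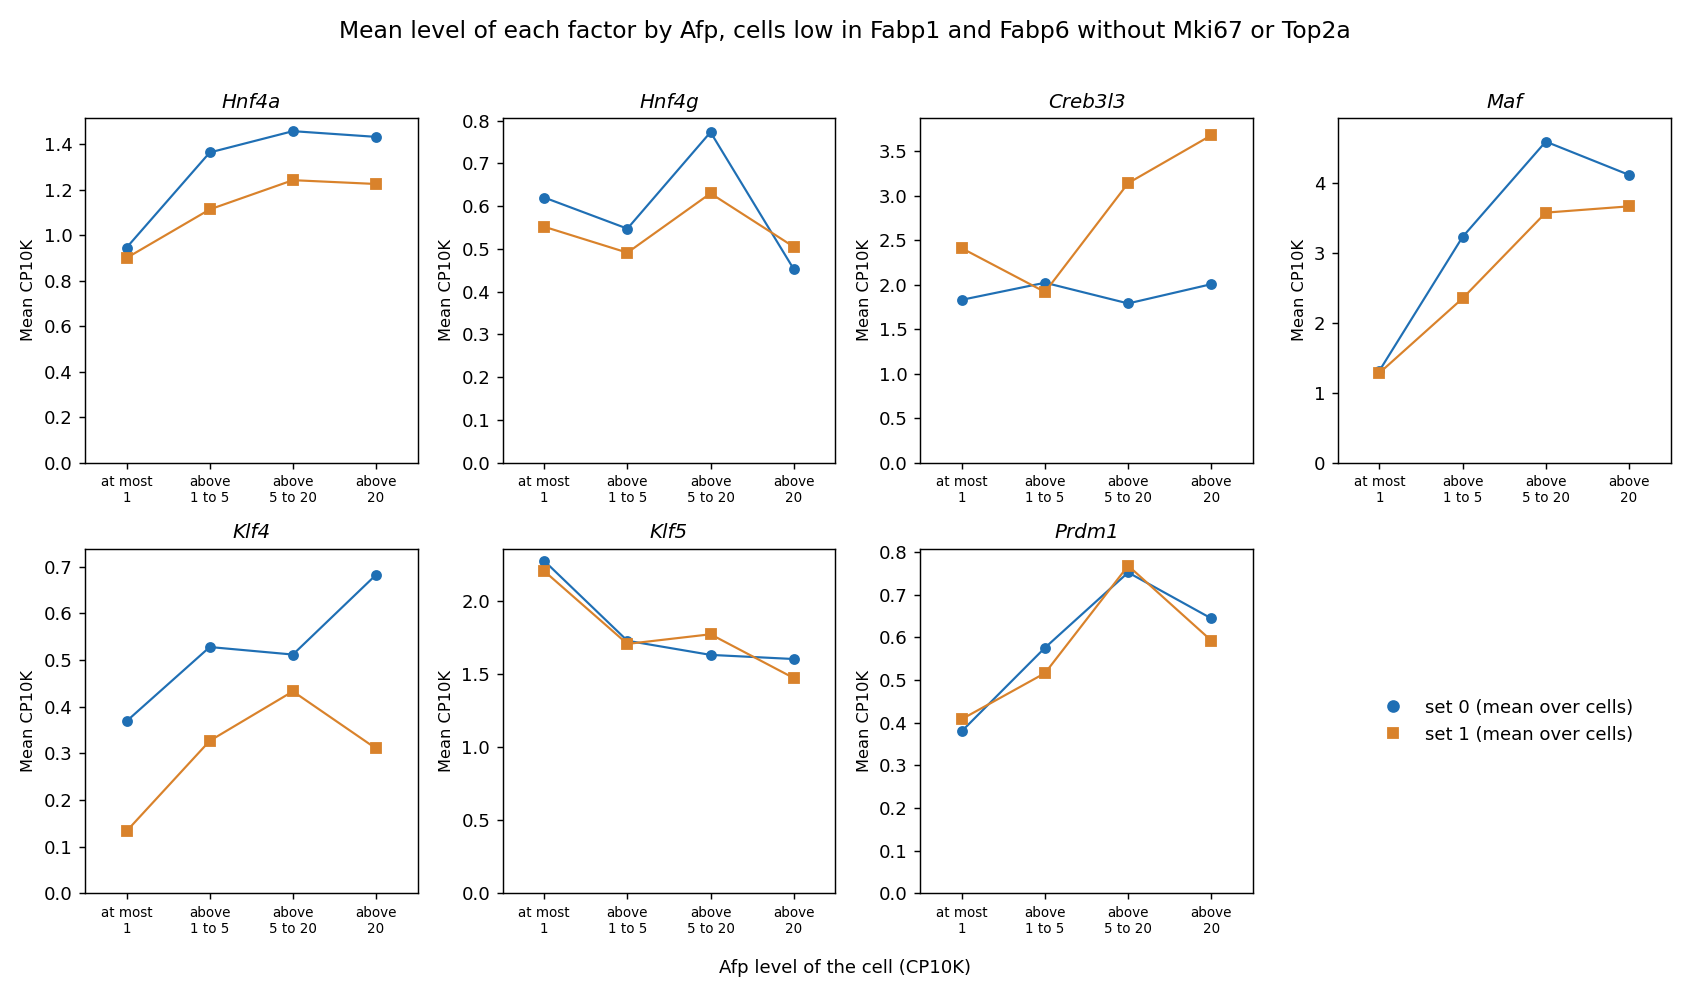
Mean level of each gene (CP10K) in 4 classes of Afp among cells with low Fabp1, low Fabp6 and no Mki67 or Top2a signal, for set 0 and set 1. Maf goes from 1.31 to 4.11 in set 0 and from 1.28 to 3.66 in set 1 between the outer classes, and Klf5 is lower in the highest Afp class.

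Cycling cells had less Creb3l3 and less Maf. Creb3l3 stood at 1.10 CP10K in the 844 cells with Mki67 plus Top2a of 2 or more and 5.90 in the 8989 cells at 0 (log2 -2.42, with -2.64 in set 0 and -2.22 in set 1). On summed UMIs its log2 ratio was -2.11 with an interval of -2.16 to -2.06. Maf stood at 0.662 and 2.39 (log2 -1.84, with -1.96 and -1.68). These 2 were the members called, both lower, beside 13.9% of genes called lower and 31.5% either way (15.6% lower in set 0 and 11.9% in set 1). The immediate-early list moved the other way, with a sum of 24.1 in cycling cells and 12.7 in cells at 0, and 5 of 12 higher in the pool (median log2 0.97) and 8 of 12 in set 0 (1.03), beside 17.6% of all genes higher in the pool. Its part in the member differences was not tested. The member median was -0.53 and that of all genes 0.08.

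Klf5 was the 1 member with a positive ratio, at 2.36 CP10K in cycling cells and 1.59 in cells at 0 (log2 0.56, with 0.67 in set 0 and 0.45 in set 1). Prdm1 stood at 0.282 and 0.457 (log2 -0.67), Klf4 at 0.203 and 0.297 (-0.53), Hnf4g at 0.502 and 0.631 (-0.32) and Hnf4a at 0.872 and 0.995 (-0.19). Both genes of the HNF4 pair were thus lower in cycling cells, each under 2-fold. In set 1 Klf4 stayed under the minimum level in both classes, at 0.133 and 0.164.

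Most cycling cells were low for Fabp1, so the comparison was repeated among cells low for both Fabp1 and Fabp6 (737 against 1702 cells). Cycling cells then had 0.502 CP10K of Maf and the others 2.09, a log2 ratio of -2.03 (set 0 -2.08, set 1 -1.97). For Creb3l3 the levels were 0.690 and 2.37, a log2 ratio of -1.77 (set 0 -1.78, set 1 -1.63). The same 2 genes were called, beside 9.46% of genes called lower and 17.6% either way. Prdm1 followed at 0.263 against 0.480 (log2 -0.85, with -0.70 and -0.97), and Klf5 stood at 2.39 against 2.02 (log2 0.24). In contrast to the Fabp1 comparison, where Maf gave 0.04 among cells without cycling signal, the difference of Maf with cycling remained at this low Fabp1. The 1702 cells without cycling signal were mixed by Afp, however. Those with the least Afp had less Maf than this class as a whole, as given above. Cycling cells were not compared with that Afp class alone, so the part of Afp in the Maf ratio was not tested.

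**Figure D5:**
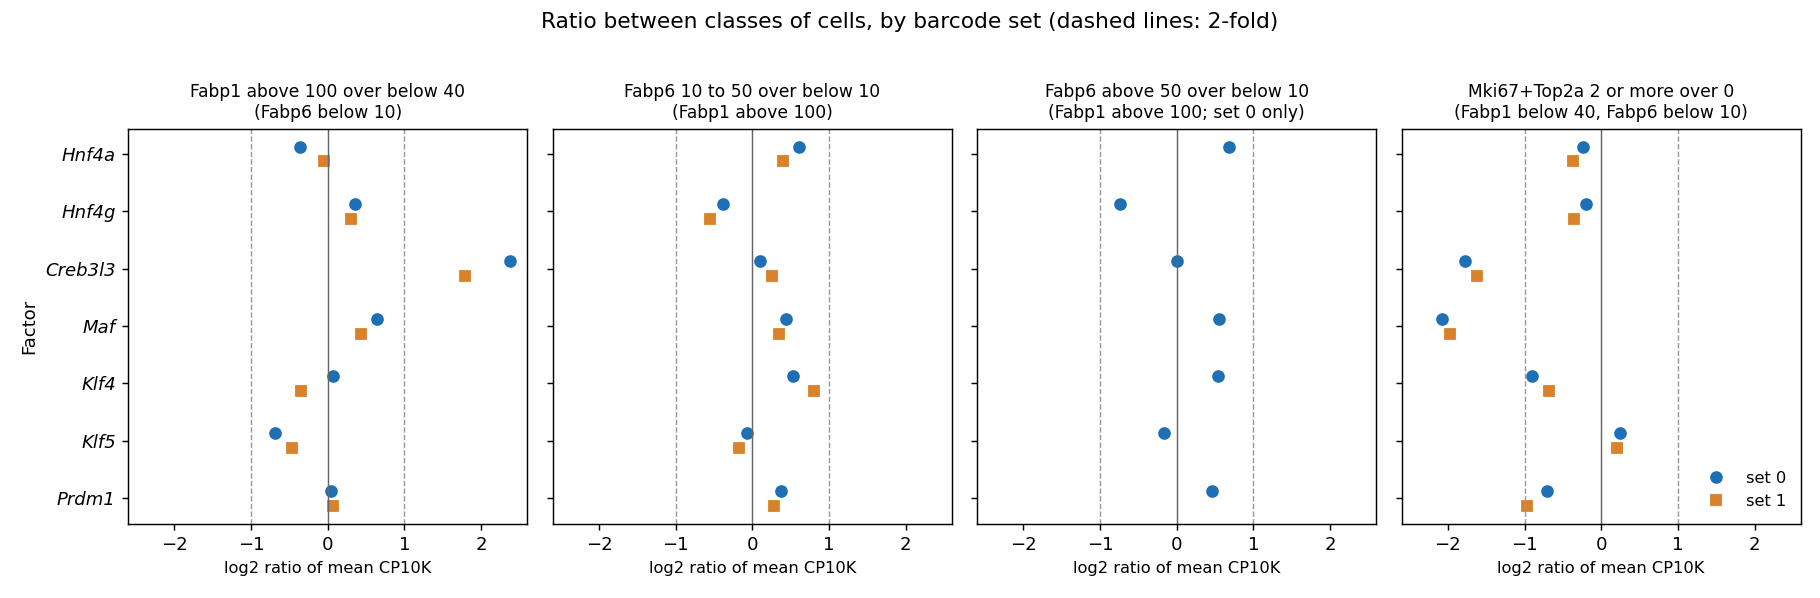
Log2 ratio of each gene in comparisons by Fabp1, Fabp6 and cycling signal, for set 0 and set 1, with lines at 2-fold. Each comparison is restricted to a subclass of cells. Fabp1 is compared within low Fabp6, Fabp6 within high Fabp1, and cycling signal within low Fabp1 and low Fabp6. Creb3l3 and Maf pass 2-fold downwards with cycling in both sets, and Creb3l3 passes 2-fold upwards with Fabp1 in both sets.

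Klf4 was the member that differed between the sets. It stood at 0.384 CP10K in set 0 and 0.156 in set 1 over all cells (log2 of set 1 over set 0 -1.24), beside 1.29% of 5289 genes called lower in set 1 and 1.95% called either way. No other member was called. In the classes that both sets fill, Klf4 gave -1.22 at high Fabp1 with low Fabp6, -0.94 at high Fabp1 with Fabp6 10 to 50, -0.80 at low Fabp1 with low Fabp6 and -0.39 at Fabp1 40 to 100 with low Fabp6. The largest difference among the other 6 genes in these classes was that of Creb3l3 at low Fabp1 and low Fabp6, with 1.31 in set 0 and 2.14 in set 1 (log2 0.70).

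In the 207 cells rich in goblet markers Klf4 stood at 1.38 CP10K, above its level in every Fabp1 by Fabp6 class, with 1.34 in 141 cells of set 0 and 1.49 in 66 cells of set 1. The same cells had 2.30 of Creb3l3, 1.57 of Maf, 1.19 of Hnf4a, 0.427 of Hnf4g, 2.14 of Klf5 and 0.389 of Prdm1. Their Hnf4a share was 69.1%. Between the sets the log2 ratio of Klf4 was 0.16 in this group, where that over all cells was -1.24. The goblet list itself summed to 3.80 over all cells of set 0 and 2.63 in set 1. Gm42418, a transcript that overlaps ribosomal RNA sequence, stood at 219 in set 0 and 133 in set 1, while the immediate-early sum was 14.4 and 13.9. In the pool of both sets Gm42418 also moved with Fabp6, at 154, 251 and 318 from the low to the high class. The high class was nearly all set 0, so these values do not separate Fabp6 from the set. In the goblet-rich cells Gm42418 stood at 431. The part of Gm42418 in the Klf4 differences was not tested.

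Genes on which these factors are known to act were followed by lists, which were chosen with earlier results of these data known. Of 16 genes of lipid absorption, 12 were higher in high than in low Fabp1 cells and none lower (median log2 1.56, against -0.17 over all genes, of which 4.91% were higher), such as Fabp2 (2.74), Apoa4 (2.49) and Apoa1 (1.51). Of 15 brush border genes 7 were higher (median 0.88), among them Cdhr5 at 1.12, a cadherin of the microvillus tip, while Eps8l3 (0.86) and Slc9a3r1 (0.71) were under 2-fold. Of 11 genes of the suckling type 5 were higher (median 0.49), with Fcgrt, the neonatal Fc receptor, at 2.95 and Ass1, of arginine synthesis, at 1.40. Of 6 adult-type genes, which PRDM1 is known to hold back, 3 passed the minimum level and 1 of them was higher (Lrrc19 1.42).

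With Fabp6 the lists divided. Between Fabp6 above 50 and below 10 in set 0, where 3.53% of all genes were higher and 5.1% lower, 1 of 16 lipid genes was lower and none higher, 1 of 15 brush border genes was lower and none higher, and 5 of 11 suckling-type genes were higher (median 0.86). In the pool 0 lipid genes were called, 2 brush border genes were higher and 1 lower, and 5 suckling-type genes were higher (median 0.97), among them the lysosomal sialidase Neu1 at 1.25. In cycling cells 14 of 16 lipid genes were lower (median -2.36), as were 10 of 15 brush border genes (-1.66) and 10 of 11 suckling-type genes (-2.50), beside 13.9% of all genes lower. By Afp, 11 of 11 suckling-type genes were higher in the highest class (median 2.36), and 9 of 12 immediate-early genes were lower, beside 11.1% of all genes higher and 10.6% lower.

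Of 56 other intestinal transcription factors, 55 had a column and 31 passed the minimum level in the Fabp1 comparison, where 4 were higher and none lower, beside 4.91% of all genes higher and 11.6% lower. In set 1, 3 of 30 were higher. Among those higher in both sets, the duodenal factor Onecut2 gave a log2 ratio of 1.28 (1.37 in set 0 and 1.23 in set 1) and Prdm16, a zinc finger regulator of the Prdm family, 1.17 (1.29 and 1.07). With Fabp6, Onecut2 stood at 0.064 CP10K above 50 and 0.786 below 10 (log2 -3.42), and by Afp its log2 ratio was -4.39. Hnf4g and Klf5 had negative ratios in both of these comparisons too, each under 2-fold.

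Across 20 groups of at least 50 cells, made by crossing the Fabp1, Fabp6 and cycling classes within each set, the members fell into patterns of unlike shape. The groups share libraries and depth, and every group with Fabp6 above 50 is of set 0, so the correlations of log2 level are descriptions. Maf and Prdm1 were the most alike pair (Pearson r 0.91), followed by Creb3l3 with Maf (0.77) and Hnf4a with Prdm1 (0.75). Klf5 ran against Creb3l3 (-0.84) and Maf (-0.76), and Hnf4a against Hnf4g (-0.52).

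Among 5057 genes, those closest to Creb3l3 over the 20 groups were Dgat1 (0.989), Ros1 (0.986) and Mogat2 (0.985), of which Dgat1 and Mogat2 encode enzymes of triglyceride resynthesis. Closest to Maf were Cpeb4 (0.993), Atp6v0d1 (0.992), a subunit of the proton pump that acidifies lysosomes, and Myo15b (0.989). Prdm1 was closest to Scd2 (0.948), Tmem192 (0.944), a lysosomal membrane protein, and Sft2d2 (0.938). Hnf4a was closest to Coro1c (0.942), Colgalt1 (0.941) and the epithelial cadherin Cdh1 (0.926), and Hnf4g to Uqcrb (0.923), Dbi (0.911) and Cox7b (0.884), of which Uqcrb and Cox7b are subunits of the respiratory chain. Among the 3 genes closest to Klf5 were Wdr74 (0.983) and the ribosomal protein gene Rps13 (0.980). Klf4 was closest to Wdr31 (0.953), Tmsb10 (0.937) and Gm42418 (0.934). Both Klf4 and Gm42418 differed between the sets, and these correlations do not separate the set from the cell class.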

How the data were processed

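Per the submitters' processing notes, Salmon 0.14.1 with alevin, Scanpy 1.6.0 and the builds GRCm38 and mm10 were used, and the role of each is not given in the sources used here. The authors deposited 1 table of linear signal per cell and gene that sums to 10000 in each cell. UMI counts were recovered by dividing each cell's signal by its most frequent non-zero value, taken as 1 UMI. In the median cell 95.0% of values (lowest 84.3%) were whole to within 0.01, and the median depth was 23048 UMIs (1153 to 250630). The labels state 10000 reads per cell, which is below the recovered median, though UMIs cannot outnumber reads. This mismatch was not resolved, and depths and intervals rest on the recovered counts. No cell was removed on quality and no doublet caller was run. Shared barcodes were kept in set 0 alone, so their copies in set 1 were left out.

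Class means and log2 ratios (0.01 added) were computed with Python 3.11.15, NumPy 2.4.6, pandas 2.3.3 and SciPy 1.17.1, and figures with matplotlib 3.10.9. The procedure was tested on simulated data. The members, lists and limits were chosen with earlier results of these data known. The Afp split, the Fabp6 10 to 50 comparison, the immediate-early list and the restriction to cells without cycling signal were added after the data were seen. Named were all members, the other factors at least 2-fold apart in both sets by Fabp1, the 3 most abundant genes of each list, and the 3 genes most like each member. Of the genes this rule names, 2 are not reported here.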

Additional observations from a re-analysis of the deposited data

How the results depend on the processing

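No paired analysis was possible because each genotype has 1 library and no label ties a barcode suffix to it. The number of members called stayed at 1 for Fabp1 (all cells, and Fabp6 below 10), 2 for both cycling comparisons and 0 for Fabp6 10 to 50 under every alternative run. For Fabp6 above 50 over below 10 it went from 1 to 0 with a pseudocount of 0.1, a minimum of 1 CP10K or set 0 alone. Within Fabp1 40 to 100 it went from 2 to 1 with limits 20% higher, a minimum of 1, or totals without mitochondrial, ribosomal protein and haemoglobin genes. Within Fabp1 above 100 it went from 1 to 0 with limits 20% higher, a pseudocount of 0.1, a minimum of 1 or set 0 alone. For Afp it went from 1 to 2 on summed counts, without secretory cells or in set 1 alone. The cause was not tested. Of 903 recomputed log2 ratios 12 changed sign, all with a main size of at most 0.19, in Klf4, Prdm1, Maf and Creb3l3. Another measure is the counting interval of the main value, outside which 177 of the 903 fell. Totals without those 3 gene classes moved the median of all genes from -0.17 to -0.32 for Fabp1 (-0.18 to -0.36 within Fabp6 below 10), from -0.01 to -0.13 for Fabp6 within Fabp1 40 to 100, from 0.08 to 0.27 for cycling and from 0.01 to -0.17 for Afp. They changed the higher and lower calls from 278 and 658 to 254 and 994 for Fabp1, from 222 and 322 to 212 and 465 for Fabp6, from 388 and 829 to 338 and 1217 for Fabp1 within Fabp6 below 10, from 1054 and 831 to 1467 and 732 for cycling, and from 641 and 613 to 535 and 923 for Afp. Set 1 alone was not run for Fabp6 above 50, since it holds 27 such cells.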
